A study of Mus musculus with 294 samples.

Results

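The cells described here are the Twist1-high cells of name series 4 to 7 in a set of single cells from the embryonic mouse heart. They number 63 of the 150 cells in those series, or 21.4% of the cells in all 7 series. The members were chosen by their measured Twist1 level, 100 CPM or more, where CPM is the reads of a gene scaled to a total of 1000000 reads per cell. The members were compared with 39 Twist1-low cells, with Twist1 below 10 CPM, within each series. A further 46 cells lay between the thresholds, and 2 cells, C722 and C755, were left out by the rule. A name series takes in the cells whose names start with the same digit. The meaning of the digit is not given in the labels, and the series are not treated as groups that the study compared.

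All cells carried Wnt1-Cre and R26-EYFP, in which the Wnt1 driver switches on the yellow fluorescent protein EYFP in cells of the neural crest lineage and their descendants. They were EYFP-positive cells sorted from outflow tract tissue near the aorticopulmonary septum of embryos at 4 ages, E17.5, E14.5, E12.5 or E11.5, and were captured one by one on Fluidigm C1 chips. Stage, animal and chip are not given for a single cell, so all cells count as 1 sample. No test between cells was made, and the values below describe these cells only.

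Twist1 is a basic helix-loop-helix transcription factor that binds DNA as a dimer at E-boxes. It is known for its part in the migration of neural crest cells and in the proliferation of mesenchymal cells in the endocardial cushions, from which the valves and outflow septum form. Cushion cells can later take on features of cartilage, with Sox9 and proteoglycan genes, or of tendon, fibroblast or smooth muscle. Acta2, encoding smooth muscle actin, marks the last of these.

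Over the whole series, a cell had between 34046 and 3033857 reads in genes. In series 4, the median total was 982300 in Twist1-high and 808060 in Twist1-low cells. In series 6 it was lower in the Twist1-high cells, at 1207900 against 2019100. Mki67 or Top2a, which mark cycling cells, reached 10 CPM in 26 of 63 Twist1-high, 15 of 46 middle and 11 of 39 Twist1-low cells. Reads from Y-linked genes without Xist were seen in 25 Twist1-high and 10 Twist1-low cells, and Xist without Y-linked reads in 20 and 20. The part of depth, cycling and sex in the differences below was not tested, beyond the alternatives given with them.

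Twist1 itself lies at chr12:33957671-33959829 on the plus strand of GRCm38. Its level chose the members, so the following values are a description. In the 63 members it ran from 103.54 to 1240 CPM, with a median of 242.98 CPM. Of the members, 13 lay below 150 CPM. The nearest values on either side of the upper threshold were 99.2 and 103.54 CPM, and on either side of the lower one 8.82 and 11.2 CPM. Twist1 had no read in 26 of the 39 Twist1-low cells. The share of members was largest in series 4, at 21 of 38 cells (55.3%), followed by 15 of 34 in series 5 (44.1%), 15 of 42 in series 7 (35.7%) and 12 of 34 in series 6 (35.3%). The cells left out, C722 and C755, held 12.8 and 13.01 CPM of Twist1, which is between the thresholds, and each had all 10 cardiomyocyte markers at 10 CPM or more.

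**Figure D1:**
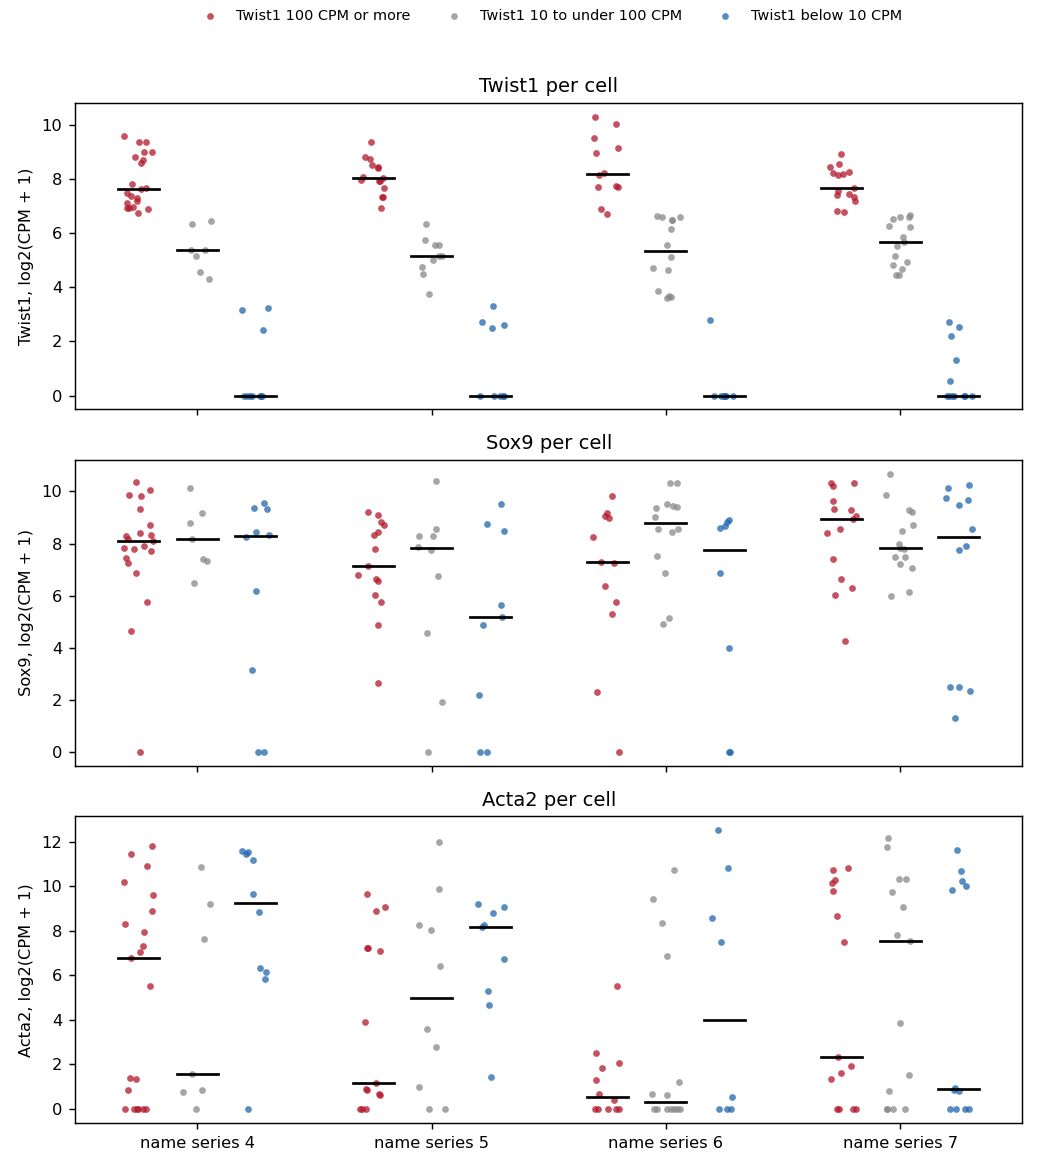
Twist1, Sox9 and Acta2 in each cell of name series 4 to 7, as log2(CPM + 1) on the vertical axis, with a black bar at each class's median. Twist1 separates the classes because it defined them, while Sox9 and Acta2 overlap widely between Twist1-high (red), middle (grey) and Twist1-low (blue) cells.

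Given a gene's mean CPM in the Twist1-high and Twist1-low cells of a series, its log2 ratio is the log2 of the first over the second after 10 CPM was added to each. The filter on low values kept 8247 genes, those that reached 10 CPM in 10% or more of the cells compared. Of these, 805 (9.76%) were higher in Twist1-high cells in all 4 series and 367 (4.45%) were lower. With a size of at least 1.5-fold in all 4 series, 2.12% were higher and 63 genes (0.764%) lower. The median log2 ratio over all 8247 genes was 0.15, not 0. Centring each series on its own median, which by itself brings both numbers closer together, gave 589 higher and 581 lower genes. Against all other cells, those below 100 CPM of Twist1, fewer genes were higher (543 of 8466, or 6.41%) than lower (583, or 6.89%), and 308 of the 543 were also among the 805. Without the highest cell of each class for each gene, 1198 genes were higher and 1.78% lower, and the median over all genes was 0.32.

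Of the markers named with the cells, Sox9, the transcription factor of cartilage and of valve progenitors, was only slightly higher in mean CPM and Acta2 was lower in Twist1-high cells. Sox9, at chr11:112782224-112787760, had 10 CPM or more in 59 of 63 Twist1-high, 44 of 46 middle and 27 of 39 Twist1-low cells. Its CPM ran from 0 through a median of 270 to 1326 in Twist1-high cells. In Twist1-low cells it ran from 0 through a median of 240 to 1208. The classes overlapped over nearly their whole range, and the middle cells had the highest mean, 415 CPM against 364.4 in Twist1-high and 312 in Twist1-low cells. The log2 ratio of Sox9 was 0.33, 0.33, 0.24 and 0.19 in series 4 to 7, with a median of 0.28, or 0.13 after centring. The difference in mean log2(CPM + 1) had a median of 1.47, and that in share of cells 26 percentage points. Both were above 0 in all 4 series. For the log2 ratio, other settings changed the picture. The direction of Sox9 no longer held in all 4 series with Twist1-high cells set at 200 CPM, against cells with no Twist1 read, against all other cells, or in cells without Mki67 and Top2a.

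Acta2, at chr19:34241090-34255590 on the minus strand, reached 10 CPM in 27 of 63 Twist1-high cells, 22 of 46 middle and 26 of 39 Twist1-low cells. Its CPM ran from 0 through a median of 2.62 to 3573 in Twist1-high cells. In Twist1-low cells it ran from 0 through a median of 178.2 to 5843. Among the members themselves Acta2 was split: 18 had no read, 24 had 100 CPM or more and 8 had 1000 CPM or more. The log2 ratios were -1.16, -0.73, -6.14 and -0.44 in series 4 to 7. In series 6, 1 of 12 Twist1-high cells reached 10 CPM, against 4 of 8 Twist1-low cells. In series 7 the shares went the other way, at 7 of 15 against 5 of 12, although the mean was lower. The direction was lost in at least 1 series when the share of cells or mean log2 CPM replaced the mean, against cells with no Twist1 read, and in cells without Mki67 and Top2a.

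Some other contractile genes were lower as well. Of 16 listed smooth muscle genes, 11 passed the filter on low values, of which 5 were lower in all 4 series (Acta2, Cnn1, Myl9, Tpm1 and Tpm2) and 0 were higher. Over all genes tested, 4.45% were lower and 9.76% higher. The other 6, Tagln, Actn1, Cald1, Smtn, Synpo2 and Srf, had no single direction, and the medians of Cald1, Synpo2 and Srf were above 0. Mylk, Lmod1, Myh11, Des and Myocd did not pass. The median over the 11 was -0.37, beside 0.15 over all genes. Cnn1, which encodes the actin-binding protein calponin, was at 10 CPM in 24 of 63 Twist1-high cells, 24 of 46 middle and 26 of 39 Twist1-low cells. Its mean was 75.1, 150.3 and 344.3 CPM in the Twist1-high, middle and low cells, and its log2 ratios ran from -3.20 to -1.32. The median log2 ratio of Myl9, a myosin light chain, was -0.84. That of Tpm2, a tropomyosin, was -1.14, and 48 of 63 Twist1-high cells held it at 10 CPM against 30 of 39. Tagln, another actin-binding protein of smooth muscle, was lower in 3 of 4 series, and higher in the other one. Cnn1 kept its direction in 20 of 21 alternatives, the exception being the comparison with cells that had no Twist1 read, while Tpm1 and Tpm2 lost it in 6 and 5.

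Twist1 binds E-boxes, so the bases upstream of these genes were searched for the letters CANNTG, which read the same on both strands. The Cnn1 entry is printed because Cnn1 held in the most alternatives of the 5 genes. It covers chr9:22099003-22099215 on the plus strand of GRCm38.p6, from the RefSeq promoter table, up to the last base before the annotated gene, and the capitals mark its 1 E-box.

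Cnn1 promoter: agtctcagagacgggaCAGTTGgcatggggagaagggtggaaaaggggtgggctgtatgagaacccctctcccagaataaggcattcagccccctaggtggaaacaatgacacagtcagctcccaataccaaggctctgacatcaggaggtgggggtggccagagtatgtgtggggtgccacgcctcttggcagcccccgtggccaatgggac

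How many of these promoters hold an E-box depended on the window, and 3 windows were searched, with the choice of window made after matches had been seen. With 250 bases before and 50 after the start, 5 of 5 promoters of the contractile genes lower in all 4 series (Acta2, Cnn1, Myl9, Tpm1 and Tpm2) held one, beside 60.5% of 8140 promoters of all genes tested. With the 250 bases before the start it was 4 of 5 beside 54.5%. With the 150 bases before the start it was 0 of 5 beside 35.9%. For the genes higher in all 4 series, the shares were 63.2%, 56.99% and 39.9% of 823 promoters in the same windows. For the genes lower in all 4 series they were 62.03%, 56.7% and 37.4%. Of the 11 promoters of all smooth muscle genes tested, whether lower or not, 10, 8 and 3 held an E-box. A match is a stretch of letters and not a measured binding site.

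Extracellular matrix genes lay on both sides. Of 20 listed genes of cartilage-like valve cells, 10 passed the filter, of which 3 were higher in all 4 series (Sox9, Hapln1 and Col9a3) and 0 lower, with a median log2 ratio of 0.42. Beside this stand 9.76% higher and 4.45% lower over all genes tested, with a median of 0.15. Hapln1, at chr13:89539796-89611652, encodes the link protein that fixes hyaluronan to proteoglycans. It was at 10 CPM in 44 of 63 Twist1-high cells (69.8%, exact binomial 95% interval 57 to 80.8), 24 of 46 middle cells and 7 of 39 Twist1-low cells (17.9%, 7.54 to 33.5). Such intervals cover counting error over cells only. Its CPM ran from 0 through a median of 146.1 to 1669 in Twist1-high and from 0 through 0 to 678 in Twist1-low cells.

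In series 4, 18 of 21 Twist1-high cells held Hapln1 at 10 CPM and 0 of 10 Twist1-low cells did. In series 5 it was 15 of 15 against 5 of 9, in series 6 it was 7 of 12 against 1 of 8, and in series 7 it was 4 of 15 against 1 of 12. The mean was above that of Twist1-low cells in every series, and in middle cells it was 648, 357, 349 and 148.3 CPM. The mean of the middle cells lay between those of the other classes in only 1 of the 4 series. The direction of Hapln1 held in 20 of 21 alternatives and was lost in cells without Mki67 and Top2a, where series 5 has 3 Twist1-low cells. Col9a3, a collagen IX chain, had a median log2 ratio of 0.56. Col2a1, the main cartilage collagen, was higher in 1 series and lower in 3, with a median of -0.53.

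Of 10 fibroblast-like genes, 6 passed the filter, with Dcn higher and Fbln5 and Cxcl12 lower in all 4 series, and a median log2 ratio of -1.46. For all genes tested the shares were 9.76% higher and 4.45% lower, and the median was 0.15. Dcn, at chr10:97479609-97518143, encodes the small proteoglycan decorin. It was at 10 CPM in 22 of 63 Twist1-high cells, 15 of 46 middle cells and 4 of 39 Twist1-low cells, up to 1439 and 832 CPM in the first and last. Its log2 ratios were 1.83, 3.52, 1.21 and 1.74. In series 5 no Twist1-low cell had a Dcn read, so that ratio depends on the 10 CPM added. Its relative Lum was at 10 CPM in 59 of 63 Twist1-high cells, all 22 with Dcn included, and in 23 of 39 Twist1-low cells. Lum had no single direction, however, being higher in 3 series and lower in 1, with log2 ratios from -0.94 to 3.56. It had 1 direction in all series in 2 of 21 alternatives. Dcn kept its direction in all 21 alternatives.

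Fbln5, which encodes an elastic fibre protein, was at 10 CPM in 31 of 63 Twist1-high cells and 28 of 39 Twist1-low cells. Its median was 6.199 CPM in Twist1-high and 1188 CPM in Twist1-low cells, and the highest cell had 8571 and 14790 CPM. Cxcl12, a chemokine, had means of 43.7, 105.5 and 512.8 CPM in Twist1-high, middle and low cells, and log2 ratios of -4.49, -1.67, -3.65 and -3.27 in series 4 to 7. In 22 of 39 Twist1-low cells both genes were at 10 CPM, against 10 of 63 Twist1-high cells. The direction of both was lost in shares of cells and in cells without Mki67 and Top2a. Eln, encoding elastin, was lower in 3 of 4 series and higher in series 5.

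**Figure D2:**
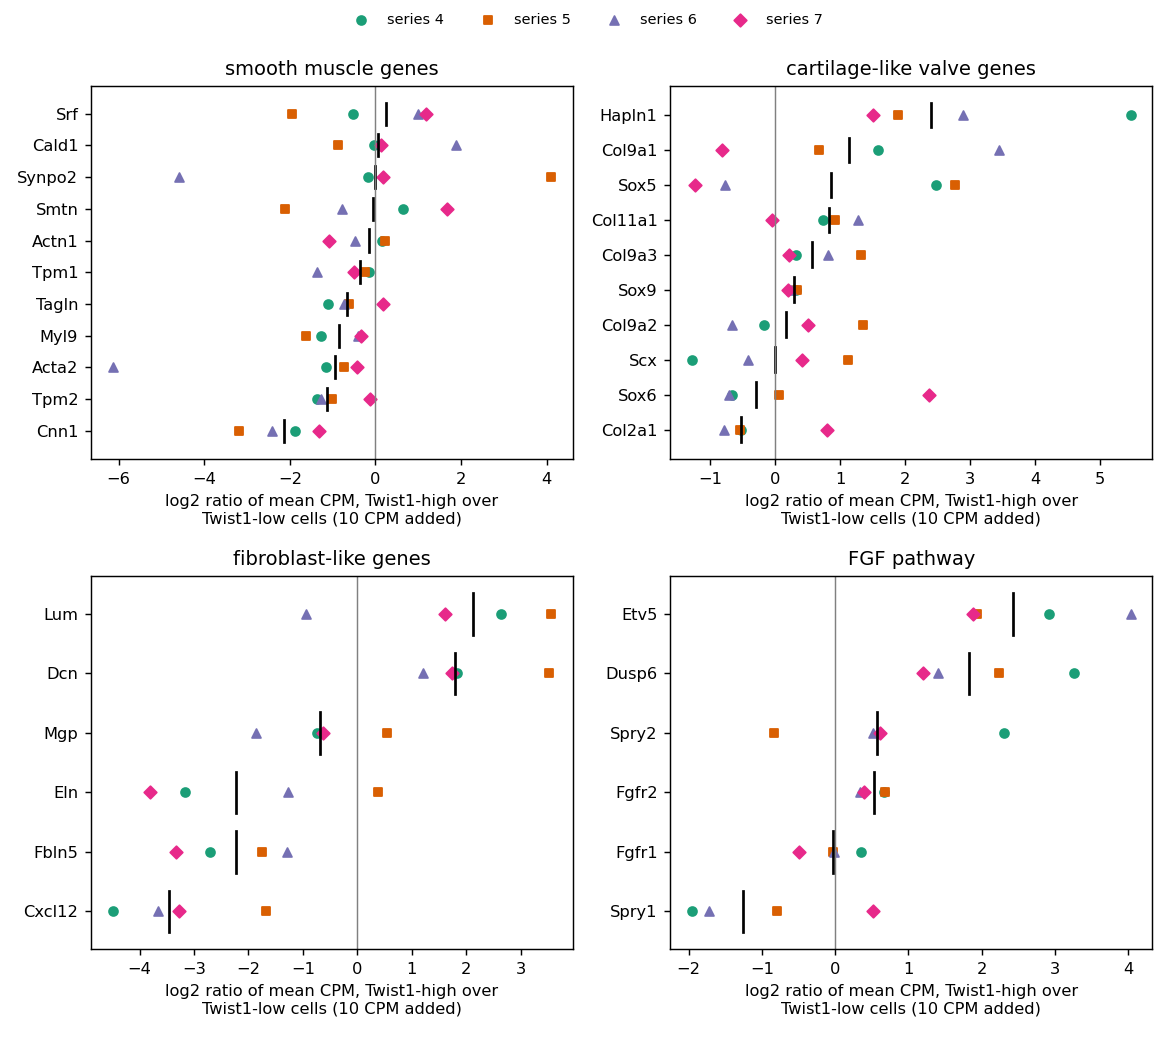
Log2 ratio of mean CPM in Twist1-high over Twist1-low cells (10 CPM added), on the horizontal axis, for each gene of 4 lists that passed the filter; symbols are the 4 name series and black bars their median. Cnn1, Acta2, Cxcl12 and Fbln5 lie to the left of 0 and Hapln1, Dcn, Etv5 and Dusp6 to the right of 0 in all 4 series, while most other genes cross 0.

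Fibroblast growth factor (FGF) signalling genes were the list with the largest share higher, though few of them were tested. Of 10 genes, 6 passed the filter, with 3 higher in all 4 series (Fgfr2, Dusp6 and Etv5) and 0 lower. Over all genes tested, 9.76% were higher and 4.45% lower. The median log2 ratio of the list was 0.55, and that of the G2 and mitosis genes was larger, at 0.75. Etv5, at chr16:22381309-22439719 on the minus strand, encodes an ETS transcription factor induced by FGF signalling. It was at 10 CPM in 18 of 63 Twist1-high cells, 6 of 46 middle cells and 3 of 39 Twist1-low cells. Its means were 87.6, 7.60 and 5.46 CPM, and the highest cell had 1357 CPM in Twist1-high and 171.02 CPM in Twist1-low cells. Dusp6, a phosphatase that acts against ERK, was at 10 CPM in 20, 6 and 4 cells of the same classes, with log2 ratios of 3.26, 2.24, 1.40 and 1.21. Etv5 kept its direction in 20 of 21 alternatives and Dusp6 in 18, and both lost it in cells without Mki67 and Top2a. Fgfr2, the receptor, was at 10 CPM in 47 of 63 Twist1-high and 18 of 39 Twist1-low cells, with a median log2 ratio of 0.53. Its direction was lost with Twist1-high cells set at 200 CPM, against cells with no Twist1 read and against all other cells. Most members lacked Etv5 or Dusp6: 9 of 63 held both, and 34 neither. The feedback inhibitors of the pathway were divided, with Spry1 lower in 3 of 4 series and Spry2 higher in 3 of 4, at median log2 ratios of -1.26 and 0.57.

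**Figure D3:**
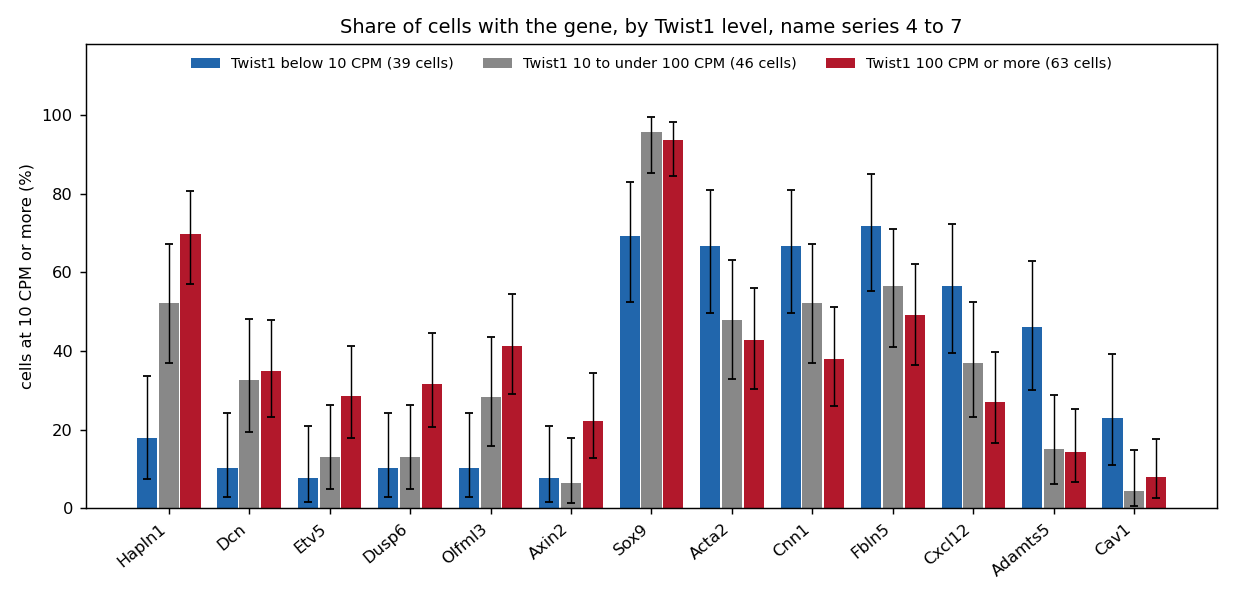
Share of cells at 10 CPM or more (vertical axis, percent) for 13 genes, in Twist1-low, middle and Twist1-high cells of name series 4 to 7, with exact binomial 95% intervals that cover counting error over cells only. Hapln1 goes from 17.9% through 52.2% to 69.8%, while Cnn1 goes from 66.7% through 52.2% to 38.1%. The shares pool the 4 series.

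Among 11 mesenchymal transcription factors other than Twist1, 9 passed the filter, and 2 of these, Prrx2 and Msx1, were higher in all 4 series, with 0 lower. The shares over all genes tested were 9.76% higher and 4.45% lower. Msx1, a homeobox factor of cushion mesenchyme, was at 10 CPM in 10 of 63 Twist1-high, 2 of 46 middle and 1 of 39 Twist1-low cells. In 2 of the 4 series no Twist1-low cell had an Msx1 read, so the ratio could not fall below 0 there. Msx1 passed the filter mainly through the Twist1-high cells. Prrx2 had a weakest log2 ratio of 0.066 and kept its direction in 12 of 21 alternatives, losing it after centring among others. Of the partners and inhibitors of Twist1, 7 of 9 passed, and Id2, which blocks helix-loop-helix dimers, was higher in all 4 series, with a median log2 ratio of 0.38. Id2 kept its direction in 15 of 21 alternatives and also lost it after centring. The partner Tcf12 was higher in 3 series, and Tcf3 and Tcf4 in 2 each.

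Of 8 valve genes tied to Twist1, 5 passed, and Postn, the matrix protein periostin, was higher in all 4 series. The other 4 had no single direction: Tbx20 and Cdh11 were higher in 3 series, and Col2a1 and Sema3c were lower in 3. Sema3c had a median log2 ratio of -2.93, and was at 10 CPM in 12 of 63 Twist1-high and 18 of 39 Twist1-low cells. Postn was at 10 CPM in 61 of 63 Twist1-high, 46 of 46 middle and 37 of 39 Twist1-low cells, and its median was 2060 CPM in Twist1-high and 1170 CPM in Twist1-low cells. The middle cells had a higher mean, 3798 CPM, than the Twist1-high cells, 2667 CPM, and against all other cells the median log2 ratio of Postn turned to -0.12. Of the 17 genes of cushion matrix, Postn was higher in all 4 series and Col1a2 and Lox were lower. Beside both lists, the shares of all genes tested were 9.76% higher and 4.45% lower.

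Of the signalling genes of other pathways, most had no single direction, as was so for 7075 of all 8247 genes tested. Among all genes, 9.76% were higher and 4.45% lower. Of the Wnt genes, 12 passed: Axin2, a negative regulator and a target of the pathway, was higher in all 4 series, and the secreted Wnt antagonists Sfrp1 and Sfrp2 were lower. Sfrp1 kept its direction in only 13 of 21 alternatives, and Sfrp2 in 19. Axin2 was at 10 CPM in 14 of 63 Twist1-high, 3 of 46 middle and 3 of 39 Twist1-low cells, and kept its direction in all 21 alternatives. Its ratio was small in series 7, at 0.26, where no Twist1-low cell had a read. Of 8 BMP genes the receptor Bmpr2 was higher, but not after centring. None of 7 TGF-beta genes, 3 PDGF or endothelin receptors or 10 outflow tract transcription factors had 1 direction in all 4 series.

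Of the genes of the cell cycle and of stress, most had no single direction over the 4 series: 11 of 15 of G2 and mitosis, 10 of 13 of S phase and 7 of 10 of stress. That was so for a larger share of all genes tested, 7075 of 8247, with 9.76% higher and 4.45% lower. Of 15 genes of G2 and mitosis, 4 were higher in all 4 series (Tpx2, Cenpf, Prc1 and Bub1) and 0 lower, with a median log2 ratio of 0.75. The median over the 4 series was above 0 for 14 of the 15, beside 4874 of all 8247 genes. Cenpf, a kinetochore protein, was at 10 CPM in 24 of 63 Twist1-high and 6 of 39 Twist1-low cells. In series 6, 4 of 12 Twist1-high cells and 0 of 8 Twist1-low cells had Mki67 or Top2a at 10 CPM, while in series 5 it was 8 of 15 against 6 of 9. Of 13 S phase genes, Mcm3 and Rrm2 were higher and Tyms was lower in all 4 series, and Mcm3 and Rrm2 were not after centring. The sign of Tyms and of Rrm2 turned in cells without Mki67 and Top2a, to 0.014 and -0.53. Of 10 immediate early and stress genes, Jun, Egr1 and Atf3 were lower in all 4 series and 0 were higher. Jun kept its direction in 19 of 21 alternatives, Atf3 in 15 and Egr1 in 13. The summed level of that list had a median of 897 CPM in Twist1-high and 1364 CPM in Twist1-low cells. The part of cycling and of stress genes in the other differences was not tested.

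Markers of other cell types were at or near 0 in most members, except those of the epicardium. Of 10 glial markers, Sox10, Fabp7 and Foxd3 had no read in any of the 63 cells, and the summed level had a median of 0. Of 5 melanocyte markers, Pmel and Mlana had no read. Of 10 cardiomyocyte markers, 3 or more were at 10 CPM in 1 of 63 Twist1-high and 0 of 39 Twist1-low cells, with a median summed level of 3.51 and 9.65 CPM. The summed level of 5 endothelial markers had a median of 6.14 and 0.696 CPM in the same classes, and Tie1 had no read. The summed level of the neuronal markers had a median of 0 in both classes. The summed level of 4 epicardial markers had a median of 228.2 CPM in Twist1-high and 388 CPM in Twist1-low cells, with a highest cell of 3573 and 2718 CPM. In 4 of 63 Twist1-high, 1 of 46 middle and 0 of 39 Twist1-low cells, 3 or more of them were at 10 CPM. Wt1, a transcription factor of the epicardium, did not pass the filter. It was at 10 CPM in 9 of 63 Twist1-high and 3 of 46 middle cells and had no read in the 39 Twist1-low cells. Wt1 was higher in all 4 series in 19 of 21 alternatives. Against Twist1-low cells without a read, however, its ratio could not fall below 0, so these alternatives say little about how firm the direction is. The part of epicardial markers in the differences above was not tested. No gene of these lists that passed the filter was higher or lower in all 4 series, and none of the glial and melanocyte markers passed.

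A rule of size gave 15 further names on each side: genes with 1 direction in all 4 series in both mean and share of cells (3.12% of all genes tested higher and 1.27% lower), ranked by their weakest series. On the higher side the list began with Olfml3, which encodes an olfactomedin-domain secreted protein, and Pgm3, an enzyme of amino sugar synthesis. Olfml3 was at 10 CPM in 26 of 63 Twist1-high, 13 of 46 middle and 4 of 39 Twist1-low cells, and its weakest log2 ratio was 2.24. The mean of Pgm3 was higher in middle cells, at 114.5 CPM, than in Twist1-high cells, at 57.9 CPM. Hapln1, Etv5 and Dcn were also among the 15, with B230118H07Rik, Ppp1r16a, Gatc, Dnaaf2, Eps15l1, Glrb, Bcl2l1, Mapk1ip1, Nop58 and Cggbp1. Pgm3, Gatc and Mapk1ip1 each reached 10 CPM in 1 of 39 Twist1-low cells. In Twist1-high cells they did in 13, 11 and 12 of 63. Where no Twist1-low cell of a series had a read, the ratio could not fall below 0. That was so in 3 series for Dnaaf2, and in 2 for Pgm3, Glrb and Mapk1ip1. In 1 series it was so for B230118H07Rik, Ppp1r16a, Gatc, Bcl2l1 and Dcn.

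On the lower side the list began with Adamts5, a protease that cuts versican and aggrecan, and Cav1, the coat protein of caveolae. Adamts5 was at 10 CPM in 9 of 63 Twist1-high, 7 of 46 middle and 18 of 39 Twist1-low cells, with log2 ratios of -2.54, -2.58, -3.98 and -2.91, and it lost its direction only against cells with no Twist1 read. Cav1 was at 10 CPM in 5, 2 and 9 cells of these classes, and its direction was lost without the highest cell of each class and in cells without Mki67 and Top2a. The sign of Eya3, lower as well, turned to 0.26 against cells with no Twist1 read. The other names were Cnn1, Zfp11, Slc25a1, Col27a1, Tcn2, Tpp1 and Prkd2, and 5 members of 1 family, Gm5796, Gm3500, Gm2897, Gm3696 and LOC100861615. Those 5 lie on chromosome 14 between 3049285 and 7100621 and may share reads as near-identical copies. Their levels over the cells compared had pairwise Pearson r from 0.74 to 0.91, so they are uncertain as separate genes and may count once.

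**Figure D4:**
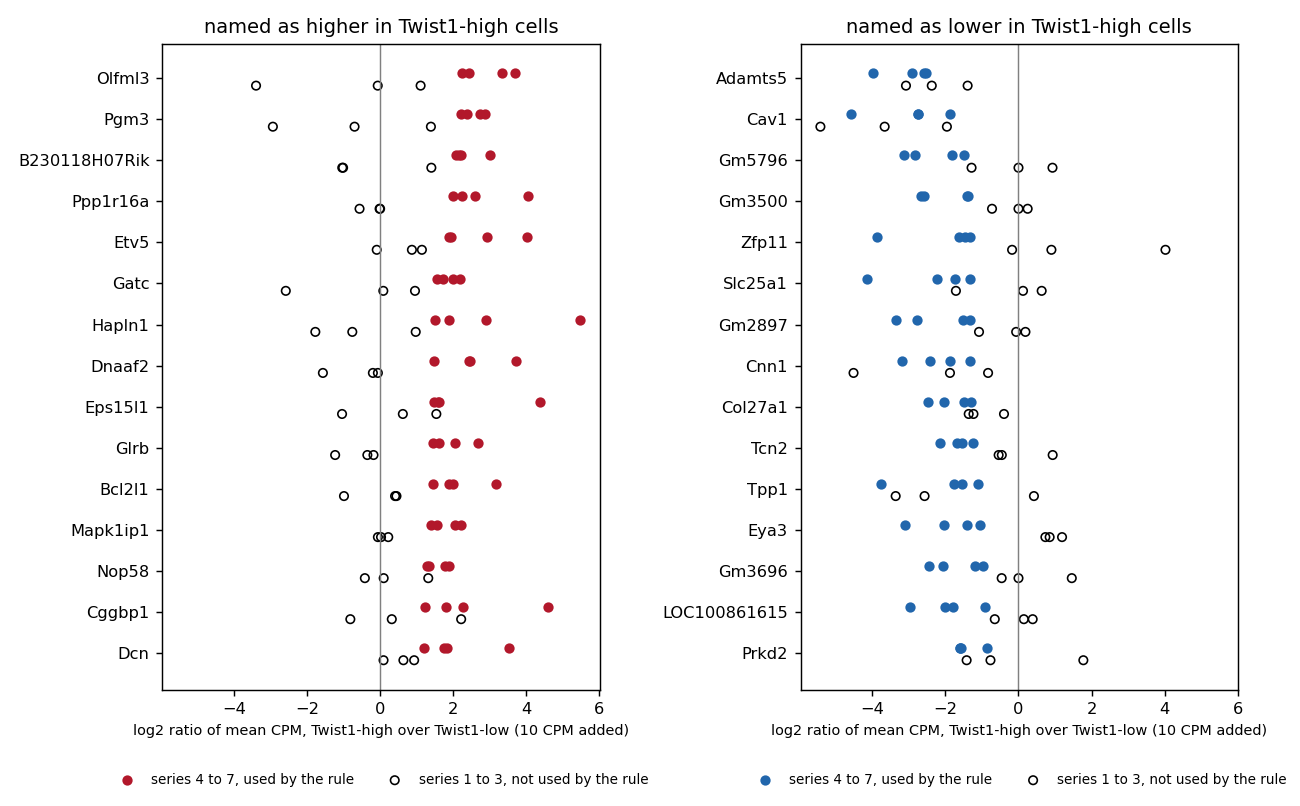
Log2 ratio of mean CPM in Twist1-high over Twist1-low cells (10 CPM added), on the horizontal axis, for the 15 genes named as higher (left) and the 15 as lower (right); filled points are series 4 to 7, which chose the genes, and open points are series 1 to 3, which did not. Adamts5, Cav1, Cnn1 and Col27a1 lie below 0 in all 7 series, and Dcn above 0 in all 7, while most open points lie near or across 0.

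Name series 1 to 3 had no part in choosing these genes. They held 10, 5 and 10 Twist1-high cells, beside 28, 35 and 18 Twist1-low cells. Of 804 genes higher in all 4 of series 4 to 7 (without Twist1), 47.5%, 42.9% and 48.4% were higher in series 1, 2 and 3, beside 48.5%, 42.2% and 45.9% of all 8247 genes. Of the 367 lower genes, 56.7%, 60.8% and 50.4% were lower there, beside 51.4%, 57.5% and 53.01%. The largest gap between a set and all genes was thus in series 1, for the lower genes.

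Higher in all 3 of series 1 to 3 were 81 of the 804 genes (10.1%), beside 875 of all 8247 (10.6%). Lower in all 3 were 67 of the 367 lower genes (18.3%), beside 16.9% of all genes. These shares lay near those of all genes, so the names that follow describe single genes and are no result about the sets. With Twist1, whose level set the classes in every series, 82 genes (0.994%) were higher in all 7 series, Dcn, Postn, Prrx2 and Col9a3 among them. Lower in all 7 were 67 (0.812%), with Acta2, Cnn1, Myl9, Tpm2, Fbln5, Cxcl12, Adamts5, Cav1, Col27a1 and Egr1. For Cnn1 the log2 ratios in series 1 to 3 were -1.88, -4.52 and -0.83. For Cav1 they were -3.66, -5.42 and -1.96, and Cav1 was at 10 CPM in 7 of 10, 1 of 5 and 1 of 10 Twist1-high cells there, against 25 of 28, 20 of 35 and 7 of 18 Twist1-low cells. For Hapln1 the log2 ratios there were 0.97, -1.77 and -0.76. Dusp6 gave 1.11, -2.27 and -2.15.

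As whole cells, the members were somewhat more like each other than like Twist1-low cells in series 4 and 5 only. The median Pearson correlation of log2(CPM + 1) between pairs of Twist1-high cells, over the 1000 most variable genes of a series without Twist1, was 0.059, 0.045, 0.030 and 0.031 in series 4 to 7. Between a Twist1-high and a Twist1-low cell it was 0.041, 0.020, 0.033 and 0.033. Within the members it was thus higher than between the classes in series 4 and 5, and slightly lower in series 6 and 7. Between pairs of Twist1-low cells it was 0.054, 0.015, 0.060 and 0.060. That was above the value of the members in series 6 and 7, and below it in series 4 and 5. Pairs of cells share cells, and the correlation of 1 pair depends on the depth of both.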

How the data were processed

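Single EYFP-positive cells were measured by full-length RNA sequencing. The deposited table of raw counts, whole numbers of reads per gene, holds 15124 genes in all cells, and the labels name no molecular identifiers. Per the submitters' processing notes, HISAT2 2.1.0, featureCounts, Seurat and the build mm10 were used; the annotation is not given in the sources used here. The authors' other deposited table holds a rounded, depth-corrected score and served as an alternative only. Counts were scaled to CPM over each cell's total, and classes, filter and log2 ratios were computed as described above, with Python 3.11.15, pandas 2.3.3 and numpy 2.4.6. The scripts were tested on simulated data. CPM is not scaled by gene length, so levels were not compared between genes. Besides the listed genes, those named were the 15 on each side with the largest weakest ratio among genes with 1 direction in mean and share. Members, lists and rules were chosen with earlier results of these data known. The 25 lists hold 262 genes, of which 159 passed the filter. The low-value filter keeps genes seen in 1 class only, which had to differ, so counts over genes that passed support nothing by themselves. Alternatives covered thresholds, filters, scaling, depth, cycling and left-out series and cells.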

Additional observations from a re-analysis of the deposited data

How the results depend on the processing

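With 1 sample and no test, each result was followed by its direction and by the share of genes tested. The genes higher in all 4 series (9.76%) were 10.1% with the filter at 30% of cells, where 390 of 3876 genes were higher, 6.41% against all other cells, 12.5% against cells with no Twist1 read, 14.5% without each gene's highest cells, 7.14% after centring, and 16.8%, 16.7%, 17.7% and 17.9% without series 4, 5, 6 and 7, since 3 series are easier to pass than 4. The lower genes (4.45%) were 4.90% with that filter, 6.89% against all other cells, 9.89%, 9.40%, 9.76% and 8.33% without series 4, 5, 6 and 7, 1.78% without each gene's highest cells and 7.05% after centring. At 1.5-fold, the higher genes (2.12%) were 3.88% against cells with no Twist1 read, 0.614% against all other cells, 3.43% with 1 CPM added, 0.558% with 50 CPM added, 1.81% with the 30% filter, and 4.87%, 4.61%, 5.28% and 5.99% without series 4, 5, 6 and 7. The lower genes at 1.5-fold (0.764%) were 1.36% with Twist1 at 200 CPM, 0.206% with 50 CPM added, 0.593% with the 30% filter, 0.291% without each gene's highest cells, and 2.76%, 2.23%, 2.22% and 2.25% without series 4, 5, 6 and 7. The median log2 ratio of Sox9, 0.28, was 0.045 against cells with no Twist1 read, 0.057 against all other cells, 0.17 in cells without Mki67 and Top2a and 0.13 after centring. Leaving out 1 compared cell at a time gave 0.21 to 0.33 for Sox9 and -1.19 to -0.82 for Acta2. For the higher and lower genes together, the share with the same direction was taken in each of series 1, 2 and 3, with a median of 49.02%. It is not the share that held in all 3, which was 10.1% of the higher and 18.3% of the lower genes, beside 10.6% and 16.9% of all genes. The median was 51.96% with Twist1 at 50 CPM, 47.7% against no read, 54.6% against all other cells, and 47.9% after thinning to 200000 reads (2 Twist1-low cells were too shallow). It was 46.6% without the filter, 53.9% with the 30% filter, 50.04% with mean log2 CPM, 46.6% with shares of cells, 38.2% without each gene's highest cells and 50.98% after centring. No share over all genes is given beside these alternatives. Among the named genes 8 values changed sign. Eya3 was 0.26 against no read, Postn -0.12 against all other cells, and Rrm2 -0.27 at 200 CPM and -0.53 in cells without Mki67 and Top2a. Tyms was 1.04 in mean log2 CPM, 17.7 percentage points in share of cells, 0.014 in cells without Mki67 and Top2a and 0.72 without its highest cells. The cause was not tested. C722 and C755 belong to neither class, and including them changed no count. Leaving out single or highest cells, the centring and the promoter windows were chosen after seeing the data. The classes were compared within each name series, and no fit with a block was made, since all cells count as 1 sample. Precision is limited by the 8 to 21 cells per class and series behind each mean.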
